A study of Mus musculus with 9 samples.

Results

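The genes that make, break down and respond to cyclic AMP (cAMP) were followed through the differentiation of 3T3-L1 cells. The set is defined by gene symbol, with no measured value in the rule, and holds 62 of the 19094 genes listed in at least 1 sample. It takes every gene whose symbol begins with Pde and a number, with Adcy and a number, with Prkac or Prkar, or with Akap and a number, together with Creb1, Creb5, Crem and Atf1. By role these were 21 catalytic phosphodiesterases, 10 adenylyl cyclases, 2 catalytic and 4 regulatory subunits of protein kinase A (PKA), 16 A-kinase anchoring proteins and 4 transcription factors of the CREB kind. The other 5 carry a Pde symbol but are not catalytic subunits of a cyclic nucleotide phosphodiesterase: Pde4dip, Pde6d, Pde6g, Pde6h and Pde12.

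3T3-L1 is a mouse fibroblast-like cell line that can be turned into lipid-storing adipocytes in culture, and all 9 samples came from it without any genetic change named in the labels. RNA was sequenced from 3 samples at each of 3 stages. Day 0 cells were confluent preadipocytes that had not met the induction medium. Day 4 cells were exposed for 2 days to induction medium, which contains the glucocorticoid dexamethasone, insulin and IBMX, an inhibitor of most phosphodiesterases, and were kept for 2 days in maintenance medium with insulin only. Day 8 cells had spent 4 more days in maintenance medium, so no sample was taken while IBMX was present. By the study's methods the cells of a stage were pooled and each sample was a mixture of RNA, so that p-values measure the spread between these samples, which may be technical. Following the study, day 4 versus day 0 is termed the early phase, day 8 versus day 4 the late phase, and day 8 versus day 0 the whole process. The early and late phases share the day 4 samples, and each shares samples with the whole process.

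The labels call every sample adipocytes, day 0 included. The summed level of 7 adipocyte markers, led by Lpl at day 0 and by Fabp4 on both later days, was 144 to 149 FPKM (a fragment level scaled to transcript length and library size) in the day 0 samples, 5720 to 8134 FPKM at day 4 and then 8222 to 8961 FPKM at day 8. The 6 preadipocyte and fibroblast markers, led by Vim at day 0 and day 4 and by Col1a2 at day 8, summed to 6940 to 7189, 4972 to 5440 and 6800 to 7007 FPKM, so fibroblast transcripts were present at every stage. The single markers moved in both directions. Their log2 fold changes ran from −2.13 to 0.84 in the early phase and from −0.88 to 0.67 over the whole process. The extraction text of the labels names dorsal root ganglia. Of 12 sensory neuron and ganglion glia markers 6 were below 0.1 FPKM in every sample, among them Scn10a, Scn9a and Sox10, and the summed level of the 12 was 4.47 to 4.79 FPKM before induction, 1.31 to 1.49 FPKM at day 4 and then 1.58 to 1.80 FPKM at day 8, led by Avil at day 0. Ptprc, Adgre1 and Itgam of the macrophage list were below 0.1 FPKM in every sample, that list summed to between 1.95 and 4.04 FPKM, led by Lyz2 at day 0 and by Cd68 on both later days, and Ucp1, the defining gene of brown adipocytes, was below 0.1 FPKM throughout. The endothelial list stayed at or below 0.50 FPKM, the epithelial list at or below 0.85 FPKM and the skeletal muscle list at or below 0.08 FPKM in every sample.

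Cyclic AMP is made from ATP by adenylyl cyclases when a hormone receptor activates the stimulatory G protein, and it is broken down by phosphodiesterases. When cAMP binds the regulatory subunits of PKA the catalytic subunits are set free, anchoring proteins hold the enzyme at particular places in the cell, and PKA phosphorylates its targets, among them the transcription factors CREB, CREM and ATF1. In fat cells this pathway is known for driving lipolysis in response to catecholamines, insulin is known to oppose it through PDE3B, and raising cAMP with IBMX is a standard step in starting adipocyte differentiation in culture.

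The 9 samples held between 18216114 and 20452144 expected counts each, where an expected count is an estimate of the number of fragments from a gene. Changes were tested with the quasi-likelihood test of edgeR on these counts over the 13154 genes that passed a filter on low counts, with Benjamini-Hochberg adjustment over all of them. A gene is said to have risen or fallen where the adjusted p was under 0.05, and is called where it also changed by more than 2-fold. Of the 62 genes 47 were listed in all 9 samples, 33 had a mean of at least 1 FPKM on some day, and 45 passed the filter and were tested. In the early phase 3 of the 45 were called higher and 7 lower, together 22.2% of them. Among all tested genes 9.77% were called higher and 7.98% lower in that comparison, together 17.8%. In the late phase 4 members were called higher and 2 lower, or 13.3%, beside 4.24% higher and 2.81% lower among all tested genes, together 7.05%. Over the whole process 6 were called higher and 5 lower, or 24.4%, beside 10.3% higher and 7.7% lower among all, together 18%. By the adjusted p alone 14 members were higher and 19 lower in the early phase, when 35.5% of all tested genes were higher and 33.7% lower, together 69.2%. In the late phase 17 were higher and 6 lower, when 22.5% of all were higher and 22.7% lower, together 45.3%. Over the whole process 14 were higher and 16 lower, when 34.8% of all were higher and 36.2% lower, together 71%. The median log2 fold change of the 45 was −0.01 in the early phase, 0.09 in the late phase and 0.02 over the whole process, beside 0.02, −0.01 and −0.02 over all tested genes. The share of members called was somewhat above that of all tested genes in each comparison, on small counts, and this difference was not tested. Of the 45, 14 were called in at least 1 comparison, a count that cannot be set beside the shares of single comparisons given here.

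**Figure D1:**
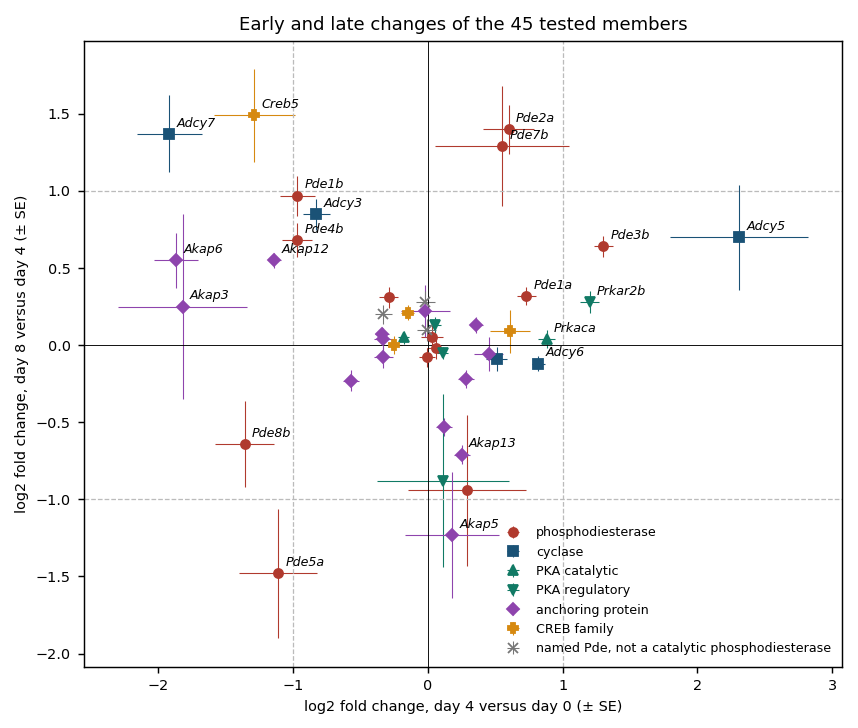
Log2 fold change of the 45 tested genes in the early phase (x axis, day 4 versus day 0) and in the late phase (y axis, day 8 versus day 4), each point with its standard error, coloured by role; dashed lines mark a 2-fold change. Both axes share the day 4 samples, so an error in those samples moves a point towards the upper left or lower right. Adcy7 and Creb5 were called on both axes and in opposite directions, while Pde3b, Prkar2b and Pde2a lie above 0 on both.

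Of the 21 phosphodiesterases 13 were tested. Of these 1 was called higher and 2 lower in the early phase, 2 higher and 1 lower in the late phase, and 4 higher and 2 lower over the whole process, with median log2 fold changes of 0.03, 0.31 and 0.01. The calls were 23.1%, 23.1% and 46.2% of the 13, beside 17.8%, 7.05% and 18% of all tested genes. Among them the largest level at day 8 was that of Pde3b (NCBI gene ID 18576), which encodes the cGMP-inhibited enzyme that insulin activates in fat cells. Its level was 6.54, 6.93 and 6.98 FPKM in the day 0 samples, 15.2, 15.2 and 17.9 FPKM at day 4 and then 22.4, 25.3 and 25.4 FPKM at day 8. The 3 stages did not overlap, and the samples of each stage lay closer to one another than to those of any other stage. Pde3b rose 2.47-fold in the early phase (log2 fold change 1.30 ± 0.07 SE, adjusted p = 1.2e-10), 1.56-fold in the late phase (0.64 ± 0.07, adjusted p = 8.6e-07) and 3.86-fold over the whole process (1.95 ± 0.07, adjusted p = 7.2e-13). Under the alternatives of test, scaling, filter and left-out sample its whole-process value stayed between 1.70 and 2.01. Since these are bulk samples, a change in the share of cells that express a gene and a change in its RNA per cell cannot be told apart, here and below. Adipocyte markers rose over the same intervals, and their part in this result was not tested.

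The 3 genes of the calcium-calmodulin stimulated family, which hydrolyse both cAMP and cGMP, followed different courses. Pde1a stood at 6.47, 7.95 and 8.17 FPKM at day 0, at 10.6, 9.67 and 10.9 FPKM at day 4 and at 14.4, 12.8 and 14.0 FPKM at day 8. Its stages did not overlap. Pde1a rose in the early phase (log2 fold change 0.73 ± 0.07, adjusted p = 6.6e-08) and in the late phase (0.32 ± 0.06, adjusted p = 6.0e-04), and it was called over the whole process at 1.05 ± 0.07 (adjusted p = 5.7e-10), just past the 2-fold limit. The whole-process value was 0.98 without day 0 replicate 1 and 0.94 when the counts were scaled by library size alone, and 0.79 and 0.86 with limma on log2(FPKM + 1) and log2(FPKM + 0.1), all under that limit. The early value was 0.42 and 0.47 in those limma fits, in which the transcript length of each sample enters through the FPKM. The length the files give for Pde1a was 14.2% greater at day 4 than at day 0. Pde1b was at 2.92, 2.44 and 2.74 FPKM at day 0, fell to 1.60, 1.25 and 1.12 FPKM at day 4 and returned to 2.48, 2.61 and 2.43 FPKM at day 8. Day 4 was the low stage in every sample, and the day 8 values lay inside the day 0 range or next to it. The log2 fold changes of Pde1b were −0.97 ± 0.13 in the early phase and 0.97 ± 0.13 in the late phase (adjusted p = 8.2e-06 and 2.3e-05), just short of a call, and 0.00 ± 0.12 over the whole process. Without day 4 replicate 1 they were −1.12 and 1.13, past the limit. Pde1c was listed at no more than 0.07 FPKM in any sample and was not tested.

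Pde2a (NCBI gene ID 207728), which encodes a phosphodiesterase that cGMP stimulates, changed mostly in the late phase. Its level was 0.83, 0.60 and 0.70 FPKM at day 0, 1.14, 1.12 and 0.87 FPKM at day 4 and then 2.26, 2.56 and 3.15 FPKM at day 8. The day 8 samples all lay above the others by a wide margin, while day 0 and day 4 were separated by little. Pde2a rose in the early phase (log2 fold change 0.60 ± 0.19, adjusted p = 0.00905) and was called higher in the late phase (1.40 ± 0.16, adjusted p = 2.1e-06) and over the whole process, when it rose 3.99-fold (adjusted p = 1.8e-08). Of the 50-base stretches in its GENCODE vM21 transcripts 62.8% also occur in a transcript annotated to another gene, Gm45837, so the assignment of its reads is uncertain.

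In the cAMP-specific PDE4 family, the target of drugs such as rolipram, Pde4b and Pde4a were lowest at day 4. Pde4b went from 5.87, 7.89 and 6.44 FPKM before induction to 3.04, 3.48 and 3.65 FPKM at day 4 and then 5.37, 5.48 and 4.58 FPKM at day 8. All day 4 samples lay below all others, and the day 8 samples lay between them and the day 0 samples. Pde4b fell in the early phase (log2 fold change −0.97 ± 0.11, adjusted p = 6.0e-07) and rose in the late phase (0.68 ± 0.11, adjusted p = 9.9e-05). Over the whole process it fell by 0.29 on the log2 scale (adjusted p = 0.0177), which did not pass without day 0 replicate 2 (adjusted p = 0.112) or without day 8 replicate 3 (adjusted p = 0.132). Pde4a followed the same order at a smaller size, with a mean of 7.75 ± 0.489 FPKM (SD, n = 3) at day 0, 6.11 ± 0.415 FPKM at day 4 and then 7.25 ± 0.462 FPKM at day 8. It fell by 0.29 in the early phase (adjusted p = 0.00186) and rose by 0.31 in the late phase (adjusted p = 0.00259), both on the log2 scale. Pde4d stayed between 3.30 and 4.05 FPKM in all 9 samples and passed the test in no comparison. Pde4c, at 0.05 to 0.20 FPKM, did not pass either.

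Pde7a, another cAMP-specific enzyme, lay between 3.69 and 4.31 FPKM, and Pde10a, which hydrolyses both nucleotides, between 2.70 and 3.32 FPKM. Neither passed the test in any comparison, with log2 fold changes between −0.09 and 0.06. With scaling by library size alone the whole-process value of Pde10a was −0.20 and passed (adjusted p = 0.0112). Together with Pde4d these formed a group of moderate phosphodiesterases for which no change was found.

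The remaining tested phosphodiesterases were low. Pde8b, which is cAMP-specific and known to resist IBMX, fell from 0.57, 0.55 and 0.56 FPKM before induction to 0.24, 0.19 and 0.20 FPKM at day 4 and was at 0.16, 0.11 and 0.11 FPKM at day 8. It was called lower in the early phase (log2 fold change −1.36 ± 0.22, adjusted p = 3.9e-05) and over the whole process (−2.01 ± 0.24, adjusted p = 1.5e-06), and its late value of −0.64 ± 0.28 did not pass (adjusted p = 0.0766). Pde8a, the other gene of this family, had a mean of 0.210, 0.0333 and 0.0567 FPKM on the 3 days and was too low to test. Pde5a, the cGMP-specific enzyme that sildenafil inhibits, was at 0.24, 0.19 and 0.21 FPKM at day 0, 0.10, 0.11 and 0.06 FPKM at day 4 and then 0.03, 0.04 and 0.03 FPKM at day 8. Its stages did not overlap, although they rested on 23.0 to 33.0 counts per sample at day 0 and only 4.07 to 5.44 at day 8. Pde5a was called lower in all 3 comparisons, with log2 fold changes of −1.11 ± 0.29, −1.48 ± 0.42 and −2.59 ± 0.36 (adjusted p = 0.00273, 0.00903 and 7.9e-06). Without day 4 replicate 3 the early value was −0.88, under the 2-fold limit. The late fall did not pass with limma on log2(FPKM + 1) (−0.08, adjusted p = 0.226) or on log2(FPKM + 0.1) (−0.50, adjusted p = 0.0652). Pde7b, by contrast, went from 0.02, 0.13 and 0.07 FPKM to 0.13, 0.09 and 0.09 FPKM and then to 0.25, 0.20 and 0.29 FPKM, on 2 to 24 counts per sample. It was called higher in the late phase (1.29 ± 0.39, adjusted p = 0.0132) and over the whole process (1.84 ± 0.42, adjusted p = 9.5e-04). The late call did not pass without day 8 replicate 3 (adjusted p = 0.0513). With single samples left out the whole-process value ranged from 1.41 without day 0 replicate 1 to 2.46 without day 0 replicate 2. With limma on log2(FPKM + 1) it was 0.22 (adjusted p = 0.0049), under the 2-fold limit.

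Low counts kept 8 of the 21 catalytic phosphodiesterases from being tested, namely Pde1c, Pde3a, Pde6a, Pde6b, Pde6c, Pde8a, Pde9a and Pde11a. Pde3a, the close relative of Pde3b that is best known from heart and platelets, reached at most 0.05 FPKM in any sample. The photoreceptor genes Pde6a, Pde6b and Pde6c reached at most 0.10 FPKM, and Pde9a was not listed in any day 0 sample.

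**Figure D2:**
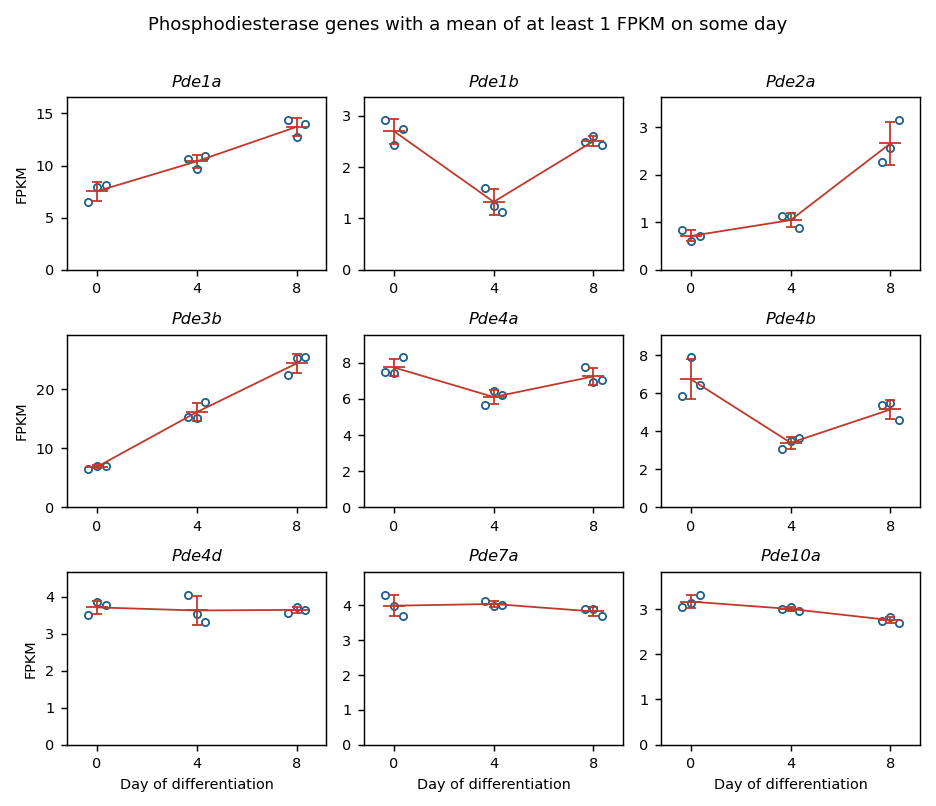
FPKM (y axis, from 0, with a separate scale per gene) of the 9 phosphodiesterase genes with a mean of at least 1 FPKM on some day, against the day of differentiation; circles are the 3 samples of a day, bars the mean and SD. Pde3b goes from 6.82 to 16.1 to 24.4 FPKM, Pde1b and Pde4b are lowest at day 4, and Pde4d, Pde7a and Pde10a stay level.

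FPKM is a level per transcript length, so levels of different genes can be added. The summed level of the 21 phosphodiesterases was 44.5 ± 1.83 FPKM (SD, n = 3) before induction, 49.7 ± 1.69 FPKM at day 4 and then 66.5 ± 0.918 FPKM at day 8. Pde3b made up 15.3% ± 0.132 of this sum at day 0, 32.3% ± 2.06 at day 4 and 36.6% ± 2.07 at day 8. At day 0 the largest share was that of Pde4a (17.4% ± 1.04), followed by Pde1a (16.9% ± 1.43), Pde3b and Pde4b (15.1% ± 1.89), and these 4 neighbours lay within about the spread of the samples. At day 8 the order was Pde3b, Pde1a (20.6% ± 1.41) and Pde4a (10.9% ± 0.839), with gaps well beyond that spread. The cAMP-specific families PDE4, PDE7 and PDE8 together made up 52.1% ± 0.985, 35.6% ± 1.39 and 30.7% ± 1.61 of the sum on the 3 days, while the families that accept both nucleotides went from 47.2% ± 1.01 to 64.1% ± 1.42 and 69.2% ± 1.60. The families known to resist IBMX, PDE8 and PDE9, made up 1.74% ± 0.236, 0.503% ± 0.0936 and 0.286% ± 0.0190 of the sum. These shares are given as a description, and no test was run on them.

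**Figure D3:**
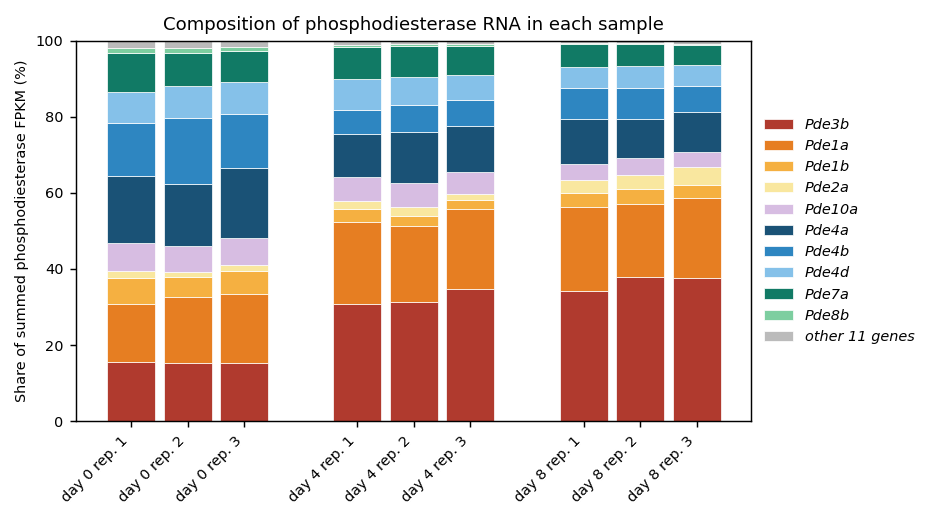
Share (percent, y axis) of each gene in the summed FPKM of the 21 phosphodiesterase genes, 1 bar per sample; colours are genes and the 11 lowest are pooled in grey. The red Pde3b segment takes 15.2 to 15.4% of each day 0 bar, 30.9 to 34.7% at day 4 and 34.2 to 37.9% at day 8.

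Pde6d and Pde12 had levels above most of the enzymes. Pde6d, a carrier of prenylated proteins, had a mean of 38.2 ± 2.80, 36.0 ± 1.13 and 42.2 ± 3.73 FPKM on the 3 days and rose in the late phase (log2 fold change 0.28 ± 0.07, adjusted p = 0.00529). Pde4dip, known as myomegalin, fell in the early phase (−0.33 ± 0.06, adjusted p = 2.2e-04) from a mean of 11.6 to 8.62 FPKM and stood at 9.53 FPKM at day 8. Pde12, a mitochondrial phosphodiesterase that acts on RNA and oligoadenylates, stayed between 5.46 and 6.52 FPKM and passed no test. Pde6g and Pde6h, the small subunits of the photoreceptor enzyme, were at most 0.45 FPKM in any sample and were not tested.

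Of the 10 adenylyl cyclases 5 were tested, with 1 called higher and 1 lower in the early phase and 1 called higher in each of the other comparisons. With so few tested these shares of 40%, 20% and 20% say little beside the 17.8%, 7.05% and 18% called among all tested genes. In level 3 had a mean of at least 1 FPKM on some day, and Adcy6 (NCBI gene ID 11512) made up 78.6% ± 0.978, 87.7% ± 0.760 and 83.7% ± 0.996 of the summed cyclase level on the 3 days. This calcium-inhibited cyclase was at 25.0, 22.4 and 23.6 FPKM at day 0, 40.3, 39.9 and 39.7 FPKM at day 4 and then 36.2, 35.0 and 36.0 FPKM at day 8. The day 0 samples lay below all others, and day 8 lay slightly but completely below day 4. Adcy6 rose 1.77-fold in the early phase (log2 fold change 0.82 ± 0.05, adjusted p = 3.0e-10) and 1.63-fold over the whole process (0.71 ± 0.05, adjusted p = 2.0e-09). Its late value was −0.12 ± 0.05 (adjusted p = 0.0616), which passed with scaling by library size alone (−0.16, adjusted p = 0.0101). It also passed with limma on log2(FPKM + 1) and log2(FPKM + 0.1) (adjusted p = 0.0135 and 0.0139) and without day 0 replicate 2 (adjusted p = 0.0435). Adcy9, the cyclase known to be insensitive to forskolin, rose from a mean of 2.65 ± 0.240 to 3.64 ± 0.257 FPKM in the early phase (0.51 ± 0.08, adjusted p = 3.5e-05) and was at 3.30 ± 0.108 FPKM at day 8.

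A pair of cyclases dipped at day 4. Adcy3, which calcium and calmodulin stimulate, was at 3.00, 2.97 and 2.76 FPKM at day 0, 1.52, 1.74 and 1.46 FPKM at day 4 and then 2.51, 2.96 and 2.97 FPKM at day 8. Day 4 was lowest in every sample and the outer stages overlapped. It fell by 0.83 on the log2 scale in the early phase (adjusted p = 3.0e-06), rose by 0.85 in the late phase (adjusted p = 6.7e-06) and showed 0.02 ± 0.10 over the whole process (adjusted p = 0.847). Of its 50-base stretches 18.6% lie in Cenpo on the opposite strand, and Cenpo was listed at 2.09 to 2.53, 0.80 to 1.12 and 1.36 to 1.63 FPKM on the 3 days. Since the counting is not stated to use strand, reads of the overlap cannot be told apart. Adcy7, a calcium-insensitive cyclase, was lower, at 0.77, 0.96 and 0.52 FPKM, then 0.20, 0.16 and 0.20 FPKM, then 0.47, 0.41 and 0.51 FPKM. It was called lower in the early phase (−1.92 ± 0.24, adjusted p = 2.2e-06) and higher in the late phase (1.37 ± 0.25, adjusted p = 3.2e-04). With limma on log2(FPKM + 1) these values were −0.55 and 0.30, under the 2-fold limit. The late value was also under it with log2(FPKM + 0.1), at 0.97. Over the whole process Adcy7 fell by 0.55 on the log2 scale (adjusted p = 0.0235), which did not pass without day 0 replicate 2 (−0.34, adjusted p = 0.15) nor without day 0 replicate 1, day 8 replicate 1 or day 8 replicate 2.

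Adcy5, the relative of Adcy6, went the other way at very low levels. It was listed at 0.05, 0.03 and 0.01 FPKM at day 0, 0.14, 0.20 and 0.10 FPKM at day 4 and then 0.17, 0.23 and 0.29 FPKM at day 8, on 1 to 5, 10 to 21 and 18 to 29 counts per sample. The day 0 samples lay below all others, and the day 4 and day 8 samples overlapped. Adcy5 was called higher in the early phase (log2 fold change 2.31 ± 0.51, adjusted p = 8.2e-04) and over the whole process (3.01 ± 0.47, adjusted p = 2.7e-05). Its late value of 0.70 ± 0.34 did not pass (adjusted p = 0.105), except without day 4 replicate 2 (1.04, adjusted p = 0.0469). Adcy1, Adcy2, Adcy4, Adcy8 and Adcy10 were too low to test. The highest value among them was 0.15 FPKM, for the bicarbonate-activated Adcy10 in a day 8 sample.

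Prkaca (NCBI gene ID 18747), the main catalytic subunit of PKA, was at 86.5, 93.6 and 87.7 FPKM at day 0, 141, 162 and 168 FPKM at day 4 and then 160, 153 and 155 FPKM at day 8. Day 0 lay below all other samples, and day 4 and day 8 overlapped. Prkaca rose 1.84-fold in the early phase (log2 fold change 0.88 ± 0.06, adjusted p = 1.3e-09), showed 0.04 ± 0.06 in the late phase (adjusted p = 0.652) and rose 1.89-fold over the whole process (0.92 ± 0.06, adjusted p = 7.8e-10). Prkacb, the second isoform, moved slightly the other way, from 27.3 to 28.3 FPKM before induction to 22.7 to 23.6 FPKM at day 4 and then 22.3 to 23.8 FPKM at day 8. It fell by 0.18 on the log2 scale in the early phase (adjusted p = 0.00194) and by 0.13 over the whole process (adjusted p = 0.0132), the latter not passing without day 0 replicate 3 (adjusted p = 0.0606) or day 8 replicate 3 (adjusted p = 0.125). The ratio of Prkaca to Prkacb was 3.23 ± 0.169 before induction, 6.76 ± 0.728 at day 4 and 6.71 ± 0.264 at day 8.

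Among the regulatory subunits only Prkar2b was called. Prkar2b (NCBI gene ID 19088), the RII-beta subunit that is typical of adipose tissue and brain, was at 20.6, 24.4 and 22.0 FPKM at day 0, 45.3, 47.3 and 54.5 FPKM at day 4 and then 56.3, 60.1 and 56.9 FPKM at day 8. The 3 stages did not overlap, although the highest day 4 sample came close to the lowest day 8 sample. It rose 2.30-fold in the early phase (log2 fold change 1.20 ± 0.07, adjusted p = 1.9e-10), 1.22-fold in the late phase (0.28 ± 0.07, adjusted p = 0.00237) and 2.80-fold over the whole process (1.48 ± 0.07, adjusted p = 1.3e-11). Its whole-process value lay between 1.34 and 1.55 under the alternatives.

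None of the other regulatory subunits was called. Prkar1a, the widely expressed type I subunit, was the most abundant at 98.5 to 109 FPKM over all 9 samples. Its early log2 fold change of 0.11 ± 0.04 passed (adjusted p = 0.0342), but it did not with scaling by library size alone (0.04, adjusted p = 0.406) or without day 0 replicate 1 (0.08, adjusted p = 0.153). Prkar2a lay between 13.7 and 15.4 FPKM, and its rise over the whole process of 0.17 ± 0.05 (adjusted p = 0.008) was not found with scaling by library size alone (0.06, adjusted p = 0.304). Prkar1b was at 0.08 to 0.44 FPKM and passed no test, with a late value of −0.88 ± 0.56. As shares of the summed regulatory subunits Prkar1a went from 74.0% ± 0.622 to 63.1% ± 1.53 and 58.2% ± 0.840, and Prkar2b from 15.8% ± 0.679 to 28.6% ± 1.85 and 33.2% ± 0.542. The ratio of both catalytic to all 4 regulatory subunits was 0.829 ± 0.0128 before induction, 1.06 ± 0.0592 at day 4 and 1.03 ± 0.0403 at day 8.

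**Figure D4:**
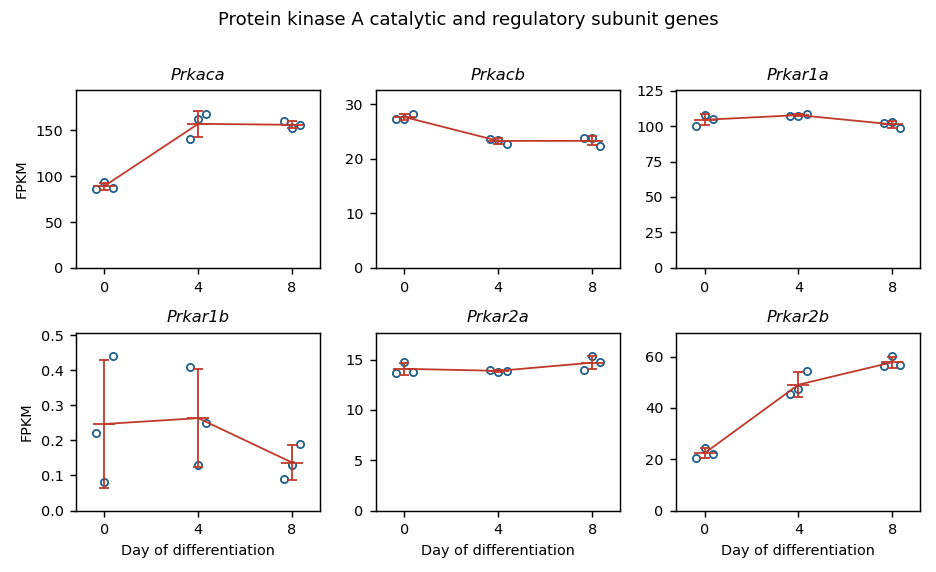
FPKM (y axis, from 0, with a separate scale per gene) of the 2 catalytic and 4 regulatory subunit genes of protein kinase A against the day of differentiation; circles are the 3 samples of a day, bars the mean and SD. Prkaca is at 89.3 FPKM at day 0 and at 157 and 156 FPKM later, Prkar2b goes from 22.3 to 49.0 to 57.8 FPKM, and the samples of Prkar1b, below 0.5 FPKM, overlap at all stages.

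The promoters of Prkaca, Prkar2b, Prkar1a and Creb5 are shown, and those of Prkacb, Prkar1b and Prkar2a are not. Prkaca and Prkar2b were chosen because they rose together in the early phase. Prkar1a and Creb5 were chosen because they were the members whose windows hold the full cAMP response element. RefSeq promoter windows, 250 bases before to 50 after a transcript start in build GRCm38.p6, were at hand for 50 of the 62 genes, and not for Pde3b. The full element, TGACGTCA, was found on either strand in 1.79% of the 32851 windows of all genes and in 3 of the 94 windows of the members, belonging to 2 genes. The shorter TGACG, which the full element contains, was found in 20.8% of all windows and in 20 of the 94. The C/EBP motif TTGCNNAA was found in 10.8% of all windows and in 9 of the 94. A match is a description of letters and does not show binding. Below, capitals mark TGACG or TGACGTCA on either strand, sequences run 5′ to 3′ on the strand of the gene, and the window with the most matches is shown for each gene.
Prkaca, chr8:83972728-83973027, plus strand: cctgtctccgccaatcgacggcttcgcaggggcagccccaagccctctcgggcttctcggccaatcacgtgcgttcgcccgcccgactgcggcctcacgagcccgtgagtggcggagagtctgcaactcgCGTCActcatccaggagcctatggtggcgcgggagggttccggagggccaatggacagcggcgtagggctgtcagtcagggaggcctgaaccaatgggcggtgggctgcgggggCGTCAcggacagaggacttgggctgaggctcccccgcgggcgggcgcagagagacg
Prkar2b, chr12:32061228-32061527, minus strand: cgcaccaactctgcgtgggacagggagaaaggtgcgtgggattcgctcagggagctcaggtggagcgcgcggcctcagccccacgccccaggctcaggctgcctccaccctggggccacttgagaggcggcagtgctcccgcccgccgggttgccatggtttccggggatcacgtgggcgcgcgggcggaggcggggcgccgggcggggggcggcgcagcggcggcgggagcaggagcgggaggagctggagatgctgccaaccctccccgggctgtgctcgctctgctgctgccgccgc
Prkar1a, chr11:109650612-109650911, plus strand: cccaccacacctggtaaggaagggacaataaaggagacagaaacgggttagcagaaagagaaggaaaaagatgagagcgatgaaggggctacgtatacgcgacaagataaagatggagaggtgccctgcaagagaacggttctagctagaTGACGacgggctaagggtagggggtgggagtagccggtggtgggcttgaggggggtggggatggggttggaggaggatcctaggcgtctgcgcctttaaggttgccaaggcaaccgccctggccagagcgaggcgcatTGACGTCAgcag
Creb5, chr6:53287053-53287352, plus strand: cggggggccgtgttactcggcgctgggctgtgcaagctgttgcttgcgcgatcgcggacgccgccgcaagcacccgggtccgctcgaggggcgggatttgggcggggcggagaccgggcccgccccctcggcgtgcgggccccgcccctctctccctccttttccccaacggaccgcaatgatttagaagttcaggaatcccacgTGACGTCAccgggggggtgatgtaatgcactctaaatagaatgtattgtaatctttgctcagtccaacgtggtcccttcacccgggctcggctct

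The Prkaca window holds the shorter motif at 2 places, its first base at −120 and −6 from the transcript start. The Prkar2b window holds neither form. In Prkar1a the full element begins at 39 after the start and the shorter motif occurs once more at −100, and in Creb5 the full element begins at −45.

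Of the 16 anchoring proteins 14 were tested, and 4 rose and 7 fell in the early phase, 3 rose and 5 fell in the late phase, and 2 rose and 10 fell over the whole process. None was called higher, and 3, 1 and 3 were called lower, which is 21.4%, 7.14% and 21.4% of the 14, near the 17.8%, 7.05% and 18% called among all tested genes. The anchoring proteins that passed, in either direction, were 78.6%, 57.1% and 85.7% of the 14, beside 69.2%, 45.3% and 71% of all tested genes. Their median log2 fold changes were −0.18, −0.01 and −0.41, beside 0.02, −0.01 and −0.02 over all tested genes. The most abundant at day 0 and day 8 was Akap12, known as gravin, which binds PKA and protein kinase C near the plasma membrane. It was at 43.6, 40.9 and 43.1 FPKM at day 0, 18.5, 18.1 and 18.6 FPKM at day 4 and then 26.5, 26.8 and 24.9 FPKM at day 8. The stages did not overlap, day 0 being highest and day 4 lowest. Akap12 was called lower in the early phase (log2 fold change −1.14 ± 0.05, adjusted p = 2.9e-12), rose in the late phase (0.55 ± 0.05, adjusted p = 1.0e-07) and fell over the whole process (−0.59 ± 0.05, adjusted p = 7.6e-09). Akap6, which anchors PKA at the nuclear envelope in muscle, followed the same course at 0.72 to 0.79, 0.17 to 0.24 and 0.23 to 0.31 FPKM, and was called lower in the early phase (−1.87 ± 0.16, adjusted p = 2.7e-08) and over the whole process (−1.32 ± 0.15, adjusted p = 8.5e-07). Its late rise of 0.55 ± 0.18 (adjusted p = 0.0218) did not pass without day 4 replicate 2 or 3 or without day 8 replicate 1 or 3, when the adjusted p was between 0.0512 and 0.0844.

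Further members were higher on both later days or lower on both. Akap1, the anchor of the outer mitochondrial membrane, rose from a mean of 14.2 ± 0.662 to 17.3 ± 0.379 FPKM in the early phase (log2 fold change 0.36 ± 0.05, adjusted p = 1.1e-05) and stood at 18.4 ± 0.0493 FPKM at day 8 (whole process 0.49 ± 0.05, adjusted p = 2.7e-07). Its late step of 0.13 ± 0.05 (adjusted p = 0.041) did not pass with scaling by library size alone (adjusted p = 0.167). Akap7 rose from 2.32 ± 0.349 to 3.01 ± 0.108 FPKM (0.45 ± 0.11, adjusted p = 0.0023). Akap9 and Akap10 each fell by 0.33 on the log2 scale, and Akap11 by 0.34, in the early phase (adjusted p = 3.3e-04, 4.0e-04 and 2.8e-05), from 4.30, 7.59 and 8.26 FPKM at day 0 to 3.26, 5.79 and 6.22 FPKM at day 4. All 3 lay within 0.1 of their day 4 level on the log2 scale at day 8 and passed no late test. Akap2 fell from 15.8 ± 1.08 to 10.2 ± 0.679 and 8.37 ± 0.424 FPKM (whole process −0.81 ± 0.06, adjusted p = 1.0e-08). Of its 50-base stretches 83.3% also occur in transcripts of Pakap, which was listed at 8.49 to 10.9, 3.67 to 4.14 and 4.47 to 4.59 FPKM, so the split of reads between both genes is uncertain.

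Akap8, an anchor of the nucleus, was at 20.5 ± 0.306, 21.3 ± 1.97 and 14.6 ± 0.354 FPKM and fell in the late phase (log2 fold change −0.53 ± 0.06, adjusted p = 1.9e-06). Akap8l rose by 0.28 in the early phase (adjusted p = 0.00101) and fell by 0.22 in the late phase (adjusted p = 0.00994, or 0.0633 without day 8 replicate 2), both on the log2 scale, with a mean of 19.5, 22.6 and 18.8 FPKM. Akap13, one of the large anchors, was at 14.2, 12.7 and 14.6 FPKM at day 0, 16.3, 16.2 and 14.7 FPKM at day 4 and then 9.62, 9.29 and 9.10 FPKM at day 8. The day 8 samples lay below all others. It rose by 0.25 in the early phase (adjusted p = 0.00124) and fell by 0.71 in the late phase (adjusted p = 9.4e-08) on the log2 scale.

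The low anchoring proteins Akap3 and Akap5 were also called. Akap3, best known from sperm, was at 0.37, 0.21 and 0.18 FPKM at day 0 and at 0.03 to 0.11 FPKM afterwards, on 12 to 24 counts per day 0 sample and 2 to 7 later. It was called lower in the early phase (log2 fold change −1.82 ± 0.48, adjusted p = 0.00298) and over the whole process (−1.57 ± 0.46, adjusted p = 0.00639). With limma on log2(FPKM + 1) these values were −0.23 and −0.22, under the 2-fold limit. The whole-process value was also under it with log2(FPKM + 0.1), at −0.97. Akap5, which anchors PKA at synapses, was at 0.07 to 0.13 FPKM before induction, 0.08 to 0.13 FPKM at day 4 and then 0.03 to 0.05 FPKM at day 8. It was called lower in the late phase (−1.23 ± 0.41, adjusted p = 0.0223) and over the whole process (−1.05 ± 0.42, adjusted p = 0.0335), on 3.97 to 17.8 counts per sample. With DESeq2 neither passed (adjusted p = 0.0674 and 0.0919). The late one did not pass without day 4 replicate 3 (−1.04, adjusted p = 0.0832) or day 8 replicate 2 (adjusted p = 0.0914), and the whole-process one did not pass without day 0 replicate 1, day 0 replicate 3, day 8 replicate 1 or day 8 replicate 2 (adjusted p = 0.123, 0.0845, 0.051 and 0.122). Akap17b stayed between 0.65 and 1.14 FPKM with no test passed, and Akap4 and Akap14, listed at no more than 0.08 FPKM, were not tested.

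**Figure D5:**
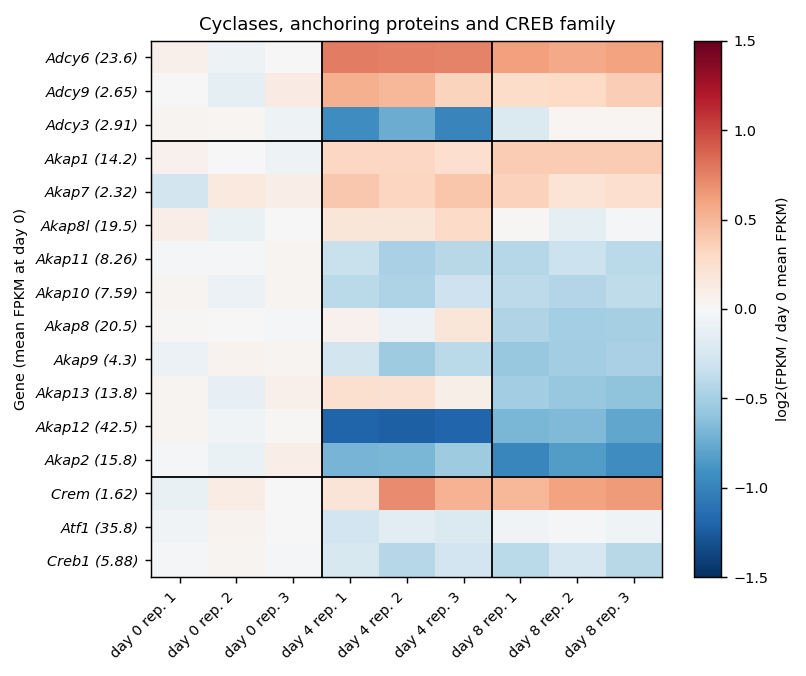
Log2 ratio of each sample's FPKM to the day 0 mean of the same gene (colour scale, red higher and blue lower) for the cyclases, anchoring proteins and CREB-family genes with a mean of at least 1 FPKM on some day; rows are genes with their day 0 mean, columns the 9 samples. Adcy6 is red at both later days, Adcy3 and Akap12 are bluest at day 4, and Akap8 and Akap13 are clearly blue only at day 8.

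The CREB family was dominated by Atf1, at 35.8 ± 1.28, 30.8 ± 1.34 and 34.6 ± 0.498 FPKM on the 3 days. Atf1 fell by 0.15 on the log2 scale in the early phase (adjusted p = 0.0115) and rose by 0.21 in the late phase (adjusted p = 0.00199), and the early fall did not pass without day 4 replicate 1 (adjusted p = 0.0531). Of its 50-base stretches 12% also occur in another annotated gene, the pseudogene Atf1-ps. Creb1, the factor the family is named for, fell from 5.88 ± 0.127 to 4.72 ± 0.329 FPKM in the early phase (log2 fold change −0.25 ± 0.06, adjusted p = 0.00204) and was at 4.59 ± 0.298 FPKM at day 8. Crem, whose gene encodes activators and the repressor ICER from different promoters, was at 1.5, 1.74 and 1.61 FPKM at day 0, 1.85, 2.64 and 2.32 FPKM at day 4 and then 2.29, 2.45 and 2.52 FPKM at day 8. All day 0 samples lay below all later ones. Crem rose in the early phase (0.61 ± 0.15, adjusted p = 0.00168) and over the whole process (0.70 ± 0.15, adjusted p = 5.0e-04), and gene-level values do not separate its forms.

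Creb5 (NCBI gene ID 231991), a more distant relative that resembles ATF2, was the one called member of this class. It was at 0.38, 0.27 and 0.31 FPKM at day 0, 0.12, 0.10 and 0.09 FPKM at day 4 and then 0.36, 0.26 and 0.24 FPKM at day 8, on 7.67 to 20.04 counts per sample at day 4. Every day 4 sample lay below every other sample, and the outer stages overlapped. Creb5 was called lower in the early phase (log2 fold change −1.29 ± 0.30, adjusted p = 0.00126) and higher in the late phase (1.49 ± 0.30, adjusted p = 7.2e-04), with 0.20 ± 0.25 over the whole process (adjusted p = 0.502). Without day 4 replicate 1 the early and late values were −1.78 and 1.97. With limma on log2(FPKM + 1) they were −0.26 and 0.22, and with log2(FPKM + 0.1) the late value was 0.92. These 3 limma values lie under the 2-fold limit. The transcript length given for Creb5 ranged from 4033 to 7886 bases over the samples, and this length enters its FPKM.

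The genes around the pathway were read from lists written for this purpose. Of 23 receptors that couple to the stimulatory G protein 19 were listed and 12 tested, of which 7 were called higher and 3 lower in the early phase, 4 and 3 in the late phase, and 6 and 1 over the whole process, or 83.3%, 58.3% and 58.3% of the 12 beside 17.8%, 7.05% and 18% of all tested genes. Adrb3, the beta-3 adrenergic receptor typical of fat cells, was not listed in any day 0 sample and was at 1.29, 1.29 and 1.74 FPKM at day 4 and at 7.24, 8.19 and 7.22 FPKM at day 8. The thyrotropin receptor Tshr was likewise not listed at day 0 and was at 0.26 to 0.37 FPKM at day 4 and at 2.48 to 3.03 FPKM at day 8. Both were called higher in the early and in the late phase. The corticotropin receptor Mc2r and the melanocortin receptor Mc5r were highest at day 4, at 8.51 to 8.91 and 12.8 to 14.4 FPKM, against 0 to 0.15 and 0 to 0.30 FPKM at day 0 and 4.42 to 4.91 and 3.85 to 4.68 FPKM at day 8.

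The early and late course also differed among the peptide and prostanoid receptors. Adcyap1r1, the receptor of the peptide PACAP, was at 0.04 to 0.11 FPKM before induction, 1.34 to 1.95 FPKM at day 4 and then 0.13 to 0.17 FPKM at day 8. It was called higher in the early phase (log2 fold change 4.47 ± 0.23, adjusted p = 5.4e-11) and lower in the late phase (−3.44 ± 0.21, adjusted p = 1.5e-09). Vipr1, a receptor of vasoactive intestinal peptide, had a like peak, with early and late values of 1.68 ± 0.10 and −1.21 ± 0.09 (adjusted p = 2.0e-10 and 3.0e-08). The prostaglandin E2 receptor Ptger4 and the prostacyclin receptor Ptgir showed the reverse, falling by 2.54 and 1.73 on the log2 scale in the early phase (adjusted p = 1.8e-10 and 7.2e-07) and rising by 1.91 and 1.89 in the late phase (adjusted p = 4.8e-08 and 7.1e-07). Adora2b was called lower in the early phase (−1.69 ± 0.24, adjusted p = 1.2e-05) and over the whole process. Calcrl, the most abundant of this list at day 0 and day 8, was at 13.6 to 14.1, 8.60 to 10.9 and 12.3 to 14.1 FPKM.

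Of 13 receptors that couple to the inhibitory G protein 10 were listed and 8 tested, with 3 called higher and 2 lower in the early phase, 3 and 1 in the late phase, and 4 and 1 over the whole process, or 62.5%, 50% and 62.5% of the 8 beside the same shares of all tested genes. The lactate receptor Hcar1 and the hydroxycarboxylic acid receptor Hcar2, both known to restrain lipolysis, were at no more than 0.03 FPKM at day 0, at 2.81 to 4.54 and 3.09 to 3.94 FPKM at day 4 and at 16.2 to 18.1 and 18.2 to 23.0 FPKM at day 8. The adenosine receptor Adora1 was at no more than 0.01 FPKM at day 0 and at 0.39 to 0.54 FPKM at day 8. Cnr1 was called higher over the whole process (1.62 ± 0.24, adjusted p = 1.9e-05), from 0.12 to 0.18 FPKM at day 0 to 0.38 to 0.49 FPKM at day 8. With limma on log2(FPKM + 1) its whole-process value was 0.31, under the 2-fold limit. Npy1r, a receptor of neuropeptide Y, fell from 37.0, 35.1 and 30.2 FPKM before induction to 16.2, 12.9 and 10.97 FPKM at day 4 and then 3.07, 2.56 and 2.17 FPKM at day 8 (whole process −3.60 ± 0.14, adjusted p = 1.2e-12). S1pr1 was called lower in the early phase (−1.68 ± 0.11, adjusted p = 1.6e-09) and higher in the late phase (1.55 ± 0.12, adjusted p = 2.1e-08). Lpar1, the most abundant of this list at day 4, fell in the early phase (−0.60 ± 0.05, adjusted p = 1.7e-08).

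Gnas, which encodes the stimulatory G protein subunit, was at 1109 to 1181 FPKM before induction, 1014 to 1049 FPKM at day 4 and then 1069 to 1157 FPKM at day 8, and it fell by 0.12 on the log2 scale in the early phase (adjusted p = 0.0273). Of the 11 tested genes among 14 G protein subunits and regulators, Rgs2 was called higher in the early phase (log2 fold change 1.53 ± 0.05, adjusted p = 4.2e-13) and Arrb1, a beta-arrestin, over the whole process (1.27 ± 0.06, adjusted p = 1.2e-11). No other of them was called, and their median log2 fold changes were 0.14, 0.02 and 0.05 in the 3 comparisons. The calls were 9.09%, 0% and 9.09% of the 11, beside 17.8%, 7.05% and 18% of all tested genes. Rgs2 speeds up the return of G proteins to their inactive state. Among the 3 inhibitors of PKA, Pkia fell from 4.82 to 6.19 FPKM before induction to 1.84 to 2.10 FPKM at day 4 (−1.44 ± 0.10, adjusted p = 3.3e-09), Pkig rose from 23.6 to 25.4 FPKM to 34.0 to 42.5 FPKM (0.77 ± 0.08, adjusted p = 1.7e-07), and Pkib was near 0. None of the 5 tested genes among 7 other cAMP effectors and exporters was called, beside 17.8%, 7.05% and 18% of all tested genes in the 3 comparisons. With 5 genes tested this says little. Of these effectors and exporters Rapgef3, which encodes EPAC1, fell by 0.63 on the log2 scale in the early phase (adjusted p = 1.7e-04), and Prkx was the most abundant at day 4 and day 8.

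Of the 8 CREB coactivators and their kinases Sik2 was the only one called, or 12.5% of the 8 in the early phase and likewise across the whole process, beside 17.8% and 18% of all tested genes, and their median log2 fold changes were 0.05, −0.15 and −0.10. It rose in the early phase from 11.5, 12.2 and 12.7 FPKM to 26.9, 28.3 and 25.5 FPKM (log2 fold change 1.21 ± 0.06, adjusted p = 3.3e-11) and was at 23.4 to 25.5 FPKM at day 8. SIK kinases hold the CRTC coactivators in the cytoplasm and are inhibited by PKA. Sik1 was the most abundant of the 8, at 32.0 to 36.8, 40.3 to 43.1 and 27.6 to 28.5 FPKM. Crebbp and Ep300, the acetyltransferases that CREB recruits, fell over the whole process by 0.72 and 0.78 on the log2 scale (adjusted p = 2.1e-09 and 2.6e-09).

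Known early targets of cAMP and CREB moved in both directions. Of 12 such genes 10 were tested, with 4 called higher and 1 lower in the early phase, 1 higher and 4 lower in the late phase, and 1 higher over the whole process. These are 50%, 50% and 10% of the 10, the last below the 18% of all tested genes and the others above the 17.8% and 7.05%. Their median log2 fold changes were 0.70, 0.02 and 0.06. Per1 was at 8.23 to 8.56 FPKM before induction, 26.5 to 28.4 FPKM at day 4 and then 11.3 to 12.2 FPKM at day 8, and Cebpd at 21.4 to 25.6, 98.4 to 102 and 17.5 to 18.6 FPKM. Both stood highest at day 4 in every sample. Fos was called higher in the early phase (1.67 ± 0.27, adjusted p = 3.6e-05), but its day 4 samples ranged from 67.4 to 185 FPKM, and the value was 1.21 without day 4 replicate 3. Pck1, which encodes a key enzyme of glyceroneogenesis, went from 0.07 to 0.09 FPKM to 0.30 to 0.68 FPKM and 10.25 to 11.01 FPKM (late phase 4.53 ± 0.15, adjusted p = 1.7e-12). Nr4a2 was the one called lower early (−1.27 ± 0.13, adjusted p = 2.2e-07), Dusp1 was called lower in the late phase (−1.12 ± 0.09, adjusted p = 7.1e-08), and Cebpb was the most abundant gene of this list at day 0 and day 8.

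The PKA substrates of the lipid droplet, Plin1 and Lipe, and the lipase coactivator Abhd5 were all called higher in the early phase, and also over the whole process. Among all tested genes 9.77% and 10.3% were called higher in these comparisons. Lipe, hormone-sensitive lipase, went from 5.68 to 6.01 FPKM before induction to 127 to 170 FPKM at day 4 and then 237 to 256 FPKM at day 8. Among the 10 genes written for making and sensing cGMP 5 were tested, and 2 of them were called lower both in the early phase and across the whole process. These calls were 40% of the 5 in either comparison, beside 17.8% and 18% of all tested genes. The median log2 fold changes of the 5 were −0.25, −0.15 and −0.68 in the 3 comparisons. Prkg2, a cGMP-dependent protein kinase, was at 15.5, 22.1 and 18.1 FPKM at day 0, 1.78, 1.94 and 2.29 FPKM at day 4 and then 1.61, 1.87 and 1.76 FPKM at day 8 (early phase −3.14 ± 0.12, adjusted p = 1.1e-12). Gucy1a2, a subunit of soluble guanylyl cyclase, was called lower in the early phase (−1.22 ± 0.28, adjusted p = 9.2e-04) at no more than 0.17 FPKM, which did not pass with limma on log2(FPKM + 1) (adjusted p = 0.0622). Npr2, a natriuretic peptide receptor that makes cGMP, was the most abundant of the 10 and fell by 0.43 on the log2 scale over the whole process (adjusted p = 2.9e-06).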

How the data were processed

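The 9 RNA samples were sequenced as paired ends on an Illumina instrument per the study's methods, although a protocol label also names a BGIseq500 kit. The authors removed low-quality reads, aligned with HISAT and Bowtie2 and quantified genes with RSEM, and the deposited files give for each gene an expected count and an FPKM value. Versions of these aligners and the genome build are not given in the sources used here, and CASAVA 1.4 is also named in the submitters' processing notes. Each file lists only genes detected in its sample, and a gene missing from a file was set to 0. Expected counts split ambiguous reads between genes (28.9 to 30.4% of listed values per sample are not whole) and were rounded to whole numbers before testing, so that genes sharing sequence are uncertain.

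Here, samples were grouped by the day in their labels. Genes were filtered with filterByExpr and scaled by TMM (factors 0.954 to 1.05), and the 3 comparisons came from 1 quasi-likelihood fit over all samples in edgeR 4.0.16 (R 4.3.3). DESeq2 1.42.0 and limma 3.58.1 on log2(FPKM + 1) and log2(FPKM + 0.1) were alternatives, as were other scalings, filters, edgeR's exact test, a replicate block and leaving out each sample. Tested on simulated data for day 4 versus day 0 with 200 of 12960 genes changed, the main test recovered 199 with 0 false calls. Recovery of changes near 2-fold, or of genes with a wide spread between samples, was not tested. Levels of different genes were compared in FPKM, which divides by transcript length. Depth was 18216114 to 20452144 expected counts per sample, and a gene at a few counts has a wide counting error. No 2 samples held identical values. Shared sequence was searched in GENCODE vM21 transcripts as 50-base stretches, and promoters came from RefSeq (GRCm38.p6). Genes were named if called in any comparison, if they encode PKA subunits or CREB-family factors, or if they reached a mean of 1 FPKM in the other classes, and other members are given by count and range. The rule for the members uses gene symbols only, but the rule and the gene lists were chosen with earlier results of these data known.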

Additional observations from a re-analysis of the deposited data

How the results depend on the processing

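Among the named members and the context genes called in some comparison, no result that passed the adjusted p changed sign under the alternatives run, and the context genes that were not called were not rerun. Small values that did not pass could, such as the whole-process value of Pde4a (0.01, and −0.10 with scaling by library size alone) and the early value of Prkar1b (0.11, and −0.36 without day 4 replicate 1). Counts of called members, higher and lower, were 3 and 7 in the early phase, 4 and 2 in the late phase and 6 and 5 over the whole process. With no fold threshold they were 14 and 19, 17 and 6, and 14 and 16. With limma on log2(FPKM + 1), which shrinks changes of low genes, early lower calls were 1, late calls 0 and 0, and whole-process calls 3 and 0. Among the calls lost there were the early and whole-process calls of Pde8b (−0.37 and −0.47) and Akap6 (−0.55 and −0.45). The late call of Pde2a (0.84) was lost as well. With limma on log2(FPKM + 0.1) late calls were 1 and 0, and whole-process lower calls 3. With at least 10 counts in every sample, which removes low members from the test, early lower calls were 4, late calls 2 and 0, and whole-process lower calls 2. With DESeq2 late lower calls were 1. Leaving out single samples gave 1 to 2 late lower calls, the count being 1 without day 4 replicate 3 or day 8 replicate 2, when Akap5 did not pass. All other counts of calls stayed within 1.5 times the values given here.

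Of 129 results, 3 for each named member, 127 kept their side of the call with DESeq2, 126 with scaling by library size alone, 128 with no filter, 119 and 108 with limma at pseudocounts 0.1 and 1, and 129 with RLE factors and with edgeR's exact test. Scaling by library size alone moved the median log2 fold change of all tested genes to −0.05 in the early phase, −0.05 in the late phase and −0.13 over the whole process, so whole-process values of small size, as for Prkar2a and Pde10a, depend on the scaling. Taken over expected counts in place of FPKM, Pde3b made up 16.9%, 34.2% and 40.3% of the phosphodiesterase sum on the 3 days. The labels number the samples of each day 1 to 3. Samples with the same number had a mean correlation of deviations of 0.03, beside −0.02 for different numbers. Single pairs ranged from −0.0348 to 0.075 and from −0.1 to 0.0628. Whether samples of the same number share a culture or a batch cannot be told from these values. With the replicate block the calls over all tested genes were 1287 higher and 1053 lower in the early phase. They were 556 and 367 in the late phase and 1360 and 1010 over the whole process. All 129 results of members kept their side with this block. Depth limits most the members on few counts per sample, such as Adcy5, Pde5a, Pde7b, Akap3 and Akap5.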

Other observations

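The deposited files also give, for each gene and sample, a length averaged over its transcripts by abundance, which moves when the mix of transcripts moves. For Pde1a this length was 3269 ± 126 bases (SD, n = 3) at day 0, 3732 ± 94.6 bases at day 4 and 3438 ± 209 bases at day 8, 14.2% longer in the early phase, and the day 0 and day 4 samples did not overlap. For Pde4dip it was 2.46% longer in the early phase and for Pde4b 3.48% shorter, again without overlap. For Crem, with 18 transcripts listed, it was 2123, 2207 and 2126 bases on the 3 days, and the samples overlapped. For Prkaca it was 2300 bases on each day. These lengths were not tested.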
